A study of Mus musculus with 6 samples.

Results

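Glycolytic genes and genes induced by low oxygen were followed in mouse 3T3 fibroblasts after knockdown of the SAFB proteins. The 39 genes were listed by name, with earlier results of these data known. Of them, 23 carry glucose through glycolysis to lactate or regulate that flow, and 12 are other known targets of the hypoxia-inducible factor (HIF). The other 4, the oxygen-sensing group, encode HIF alpha subunits and prolyl hydroxylases that act on them. All 39 were taken from 54532 genes listed in the count files. Of these, 19452 genes had at least 10 reads over the 6 libraries and were tested, among them 37 of the 39. The remaining pair, Epas1 and Slc16a3, had 1 and 2 reads in all.

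Glycolysis splits glucose into pyruvate, which is either oxidised in mitochondria or reduced to lactate and exported. HIF is a transcription factor made of an oxygen-labile alpha subunit, such as the product of Hif1a, and a stable beta subunit. When oxygen is present, prolyl hydroxylases encoded by the Egln genes mark the alpha subunit for degradation, and when oxygen is short the factor accumulates and switches on glycolytic enzymes, angiogenic factors and regulators of mitochondrial turnover. Control of HIF by oxygen acts mainly on the protein, which was not measured here.

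The data are poly(A)+ RNA-seq libraries of control cells (n = 3) and of cells depleted of Safb, Safb2 and Sltm together by siRNA (SAFB KD, n = 3). All cells were 3T3, an established line of mouse embryonic fibroblasts. Methods name the Flp-In version of the line, and both groups were transfected. The replicates were biological according to the series text. The samples therefore describe 1 line under partial and transient depletion. No hypoxic treatment is given in the labels.

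The libraries held between 33323307 and 53441129 counts. The targets of the knockdown were lower in every SAFB KD library: in scaled counts (CPM, reads relative to a library size corrected for composition by TMM), Safb fell from 93.7 ± 3.08 to 46.6 ± 2.01, Sltm from 100.2 ± 4.81 to 61.6 ± 0.515 and Safb2 from 46.9 ± 1.79 to 30.01 ± 0.312 (SD, n = 3 in each group). The first principal component, with 44.9% of the variance, separated the groups, and on the second, with 16.3%, control 3 stood apart from the other 5 libraries. Fibroblast markers were abundant, with a summed level of 23125 to 25350 CPM in control, but moved with the knockdown: 8 of 10 were lower, beside 20.1% of all tested genes, 0 were higher, and their sum fell to between 19942 and 20398 CPM. Pdgfra, the receptor for platelet-derived growth factor, fell from 366 ± 2.55 to 142 ± 1.87 CPM, its relative Pdgfrb from 118 ± 6.14 to 53.7 ± 1.30 CPM, and the collagen gene Col1a2 fell from 5056 ± 275 to 3879 ± 71.0 CPM. Markers of other cell types were scarce. Epithelial markers summed to between 0.180 and 0.451 CPM over all libraries, with Epcam, Krt18 and Cldn4 at 0, Krt19 at 1 read, and Krt8 and Cdh1 not called. Immune markers summed to between 6.33 and 6.86 CPM in control and between 8.48 and 10.4 CPM in SAFB KD, nearly all of it from Cd68, which rose from 3.82 ± 0.333 to 7.54 ± 1.04 CPM, and Lyz2. Neither Lyz2 nor Itgam was called, and the pan-leukocyte gene Ptprc had 4 reads in all. Endothelial markers summed to between 8.19 and 8.64 CPM and between 9.28 and 10.3 CPM, mostly from Cdh5, with Kdr at 0. Cdh5, Vwf and Tek were not called, and Pecam1 was called higher, from 0.862 ± 0.253 to 1.46 ± 0.439 CPM with overlapping groups. The part of these shifts in the values below was not tested, and in bulk RNA fewer cells expressing a gene and less of its RNA per cell cannot be told apart.

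HIF binds a core of 5 bases, ACGTG or GCGTG, and the sequences just upstream of several of the genes are given first, since they show which members carry these letters at their start sites. The sequences are from RefSeq on GRCm38.p6, run 5′ to 3′ on the strand of the gene, and show in capitals every ACGTG or GCGTG of either strand, so that CACGT and CACGC are the same cores read on the opposite strand and CACGTG is a core on both strands. Bases are counted from the RefSeq start site.
Pgk1 (phosphoglycerate kinase, chrX:106186935-106186988, plus strand, bases -165 to -112): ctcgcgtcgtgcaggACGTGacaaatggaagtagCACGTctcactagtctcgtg
Ldha (lactate dehydrogenase A, chr7:46845644-46845789, plus strand, bases -160 to -15): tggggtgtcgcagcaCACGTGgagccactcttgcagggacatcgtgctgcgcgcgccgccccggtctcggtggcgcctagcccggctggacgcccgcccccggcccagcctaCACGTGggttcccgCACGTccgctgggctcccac
Hk2 (hexokinase 2, chr6:82774487-82774695, minus strand, bases -241 to -33): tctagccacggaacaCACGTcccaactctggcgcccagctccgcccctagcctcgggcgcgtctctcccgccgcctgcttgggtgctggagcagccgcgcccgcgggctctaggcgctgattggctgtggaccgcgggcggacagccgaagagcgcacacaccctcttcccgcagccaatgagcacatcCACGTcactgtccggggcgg
Bnip3 (mitophagy receptor, chr7:138909522-138909638, minus strand, bases -132 to -16): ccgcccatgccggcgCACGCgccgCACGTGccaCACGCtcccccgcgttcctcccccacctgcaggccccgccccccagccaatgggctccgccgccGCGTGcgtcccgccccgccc
Ankrd37 (ankyrin repeat protein, chr8:45999851-46000100, minus strand, bases -250 to -1): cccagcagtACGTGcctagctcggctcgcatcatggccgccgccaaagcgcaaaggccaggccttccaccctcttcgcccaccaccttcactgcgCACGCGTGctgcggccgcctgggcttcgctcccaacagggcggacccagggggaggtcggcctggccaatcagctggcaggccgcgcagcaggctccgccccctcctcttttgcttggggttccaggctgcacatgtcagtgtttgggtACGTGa
Slc2a1 (glucose transporter GLUT1, chr4:119108669-119108728, plus strand, bases -76 to -17): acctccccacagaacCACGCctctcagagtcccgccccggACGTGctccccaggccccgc

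RefSeq windows of 300 bases, from 250 before to 50 after a start site, were found for 36 of the 39 members and not for Epas1, Bnip3l and Ndrg1. Among the 57 windows of these members, 29 (50.9%) held ACGTG on either strand, beside 19.6% of the 32851 windows of all genes and 24.3% of the 14654 windows of tested genes. ACGTG or GCGTG was found in 45 member windows (78.9%), beside 43.8% of all windows and 58.8% of those of tested genes. The palindrome CACGTG, which contains ACGTG and is also the E-box bound by MYC and its relatives, was found in 7 member windows (12.3%), beside 7.15% of all windows and 9.40% of those of tested genes. ACGTG was in 17 of 36 windows of glycolytic members, 9 of 18 of the other HIF targets and 3 of 3 of the oxygen-sensing group. No test was run on these shares.

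Of 24 tested members with ACGTG in a window, 19 rose in SAFB KD with a median log2 fold change of 0.50, and of 11 without it 9 rose, also with a median of 0.50. Tpi1, Gpi1 and Eno2 had neither core in their windows and rose, whereas Slc2a1, with 1 core of each kind in the stretch above, fell. Among all tested genes with a window, 30.3% of those with ACGTG and 25.1% of those without it were called higher, with medians of 0.02 and 0.00. The differences between genes with and without the letters were not tested.

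Most of the 37 tested members rose in SAFB KD. In the edgeR quasi-likelihood test with Benjamini-Hochberg adjustment over all 19452 genes, 30 members were higher, 1 was lower and 6 were not called at an adjusted p under 0.05. Over all tested genes 21.4% were called higher and 20.1% lower. The members were chosen with earlier results of these data known. The comparison with this background is therefore a description and no independent support for a shift. The median log2 fold change was 0.50 for the members, which is 1.41-fold, and 0.01 for all tested genes. Every SAFB KD library was above every control library for 30 members, as it was for 25.3% of all tested genes. Since the members are well expressed, the same was counted at a mean of at least 10 CPM: there 28 of 32 members were higher and 1 was lower, beside 35.9% and 29.8% of 9082 genes. The median control level was still 99.8 CPM for these members and 47.6 CPM for all genes above the cut, so expression was not matched. Without control 3, the library that stood apart, 30 members were higher and 2 were lower. The changes were small in size. Only Ankrd37 exceeded 2-fold when tested against that threshold with glmTreat, beside 0.699% of all genes called beyond 2-fold higher. Together the members took up 0.932 ± 0.0129% of all counts in control and 1.26 ± 0.0301% in SAFB KD (SD, n = 3).

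**Figure D1:**
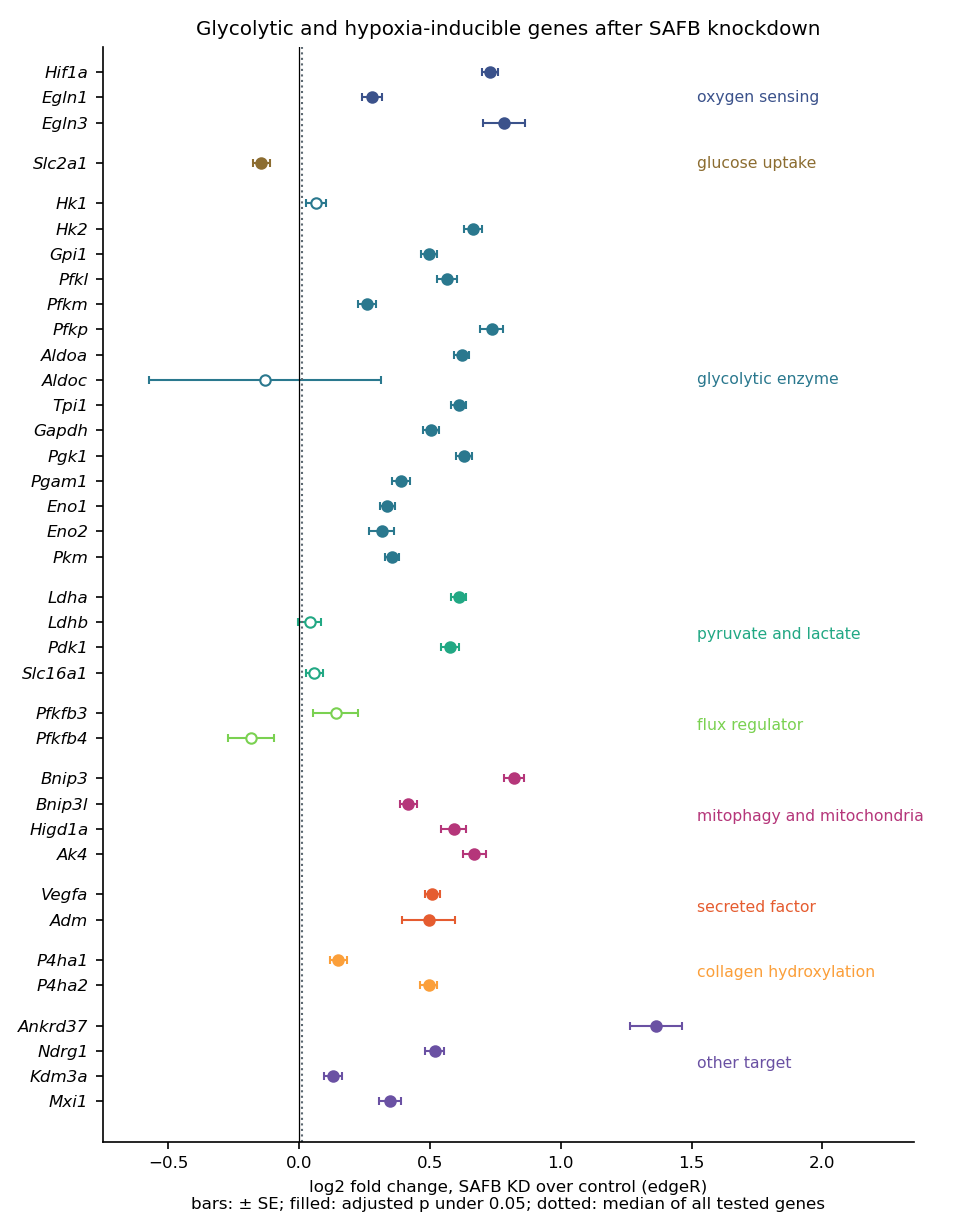
Log2 fold change of SAFB KD over control for the 37 tested members, grouped by role, with the standard error (SE) as bars. Filled points are genes with an adjusted p under 0.05 in edgeR, and the dotted line is the median of all tested genes (0.01). A total of 30 members lie to the right as filled points, Slc2a1 is the filled point to the left, and Ankrd37 lies farthest to the right at 1.36.

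The glycolytic genes and the other HIF targets are given side by side, without a test between them. Of 22 tested glycolytic members 15 were higher, 1 was lower and 6 were not called, with a median log2 fold change of 0.37. Within this class, the 15 enzymes from hexokinase to pyruvate kinase had a median of 0.50, with 13 higher. The rest were lower on this scale: -0.15 for the glucose transporter, and medians of 0.32 for the pyruvate and lactate genes and -0.02 for the 2 flux regulators. All 12 other HIF targets were higher, with a median of 0.50. So were Hif1a, Egln1 and Egln3, the 3 tested genes of the oxygen-sensing group. In the single SAFB KD libraries, the median of all tested members over the control mean was 0.49, 0.47 and 0.52 on the log2 scale, so that no library carried the shift alone.

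Hif1a, which encodes the oxygen-labile subunit of HIF, rose. It was measured at 346, 346 and 354 CPM in control and at 571, 578 and 585 CPM in SAFB KD. The groups were far apart and tight, and the rise amounted to 65.8%, a log2 fold change of 0.73 ± 0.03 (SE, edgeR adjusted p = 6.90e-23). The gene lies on chromosome 12 from 73901375 to 73947530 on the plus strand of GRCm38. Epas1, the gene of the related HIF-2 alpha subunit, had a single read, in control, so that nearly all reads of the pair came from Hif1a.

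Both prolyl hydroxylases among the members rose as well. Egln3, which is itself a HIF target, was at 8.43, 7.53 and 8.54 CPM in control and at 13.7, 13.1 and 15.2 CPM in SAFB KD, a log2 fold change of 0.78 ± 0.08 (edgeR adjusted p = 1.05e-10). Egln1, the main hydroxylase of HIF in most cells, went from 67.5 ± 2.32 to 81.9 ± 2.86 CPM, which is 0.28 ± 0.04 on the log2 scale. Neither gene had overlapping groups. Per kilobase of exon, Egln3 made up 14.1 ± 0.787% of the pair in control and 18.8 ± 0.992% in SAFB KD. Another gene of the family, Egln2, is not a member and went the other way. It fell from 35.8 ± 1.42 to 31.2 ± 1.23 CPM, a log2 fold change of -0.20 ± 0.05 (edgeR adjusted p = 0.00118). Hif1an, a further hydroxylase of HIF and also not a member, was lower too, at -0.14 ± 0.04 (edgeR adjusted p = 0.00359).

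The transcript of the glucose transporter was lower. Slc2a1, the gene of the main glucose transporter of fibroblasts, was at 160.2, 157 and 159 CPM in control and at 146, 138 and 147 CPM in SAFB KD. All SAFB KD libraries were below all control libraries, and the level fell by 9.57%, a log2 fold change of -0.15 ± 0.03 (SE, edgeR adjusted p = 2.57e-04). It was the only member called lower. The exon-bearing span of the gene runs from 119108711 to 119137983 on chromosome 4.

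Of the 15 enzymes of the pathway from hexokinase to pyruvate kinase, 13 rose. The hexokinases, which trap glucose in the cell, differed from each other. Hk2, the inducible form, was at 79.2, 75.8 and 77.0 CPM in control and at 125, 120.2 and 122 CPM in SAFB KD (log2 fold change 0.66 ± 0.03, edgeR adjusted p = 3.88e-19). Hk1, the constitutive form, was at 86.8, 82.0 and 79.8 CPM and then at 88.1, 87.4 and 84.8 CPM. Its groups overlapped, and its log2 fold change of 0.06 ± 0.04 was not called (edgeR adjusted p = 0.165). That verdict was not stable, since without control 1 the value was 0.09 (edgeR adjusted p = 0.0468), and with a correction for exon length and GC content it was 0.24 (edgeR adjusted p = 4.33e-08).

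Glucose-6-phosphate isomerase, encoded by Gpi1, rose by 41.2%, from 398 ± 14.5 to 562 ± 13.0 CPM. The phosphofructokinases, which catalyse the committed step, all rose but by unequal amounts. Pfkp, the platelet form, rose from 33.8 ± 0.628 to 56.4 ± 0.546 CPM and had the largest log2 fold change among the enzymes, at 0.74 ± 0.04. Pfkl, the liver form, changed by 0.57 ± 0.04 and Pfkm, the muscle form, by 0.26 ± 0.03 on the same scale.

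In the steps that split and oxidise the sugar, Aldoa, Tpi1, Gapdh and Pgk1 rose together. Gapdh, the dehydrogenase often used as a reference transcript, was at 1142, 1094 and 1035 CPM in control and at 1544, 1505 and 1588 CPM in SAFB KD (log2 fold change 0.50 ± 0.03, edgeR adjusted p = 5.46e-17). Pgk1, which makes the first ATP of the pathway, was at 501, 499.7 and 488 CPM and then at 794, 739.6 and 770.5 CPM (log2 fold change 0.63 ± 0.03, edgeR adjusted p = 1.81e-20). In both genes the lowest SAFB KD library was well above the highest control library. Aldoa, the main aldolase here, rose from 454 ± 5.38 to 698 ± 23.4 CPM and Tpi1, the triose phosphate isomerase, from 601 ± 10.5 to 918 ± 21.98 CPM, log2 fold changes of 0.62 and 0.61. A second identifier with the symbol Aldoa, which lies just upstream on chromosome 7, was at 0.923 ± 0.243 CPM and 1.10 ± 0.0705 CPM and was not counted as the member. Aldoc, a paralogue typical of brain, was near background at 0.333 and 0.300 CPM, and its log2 fold change of -0.13 ± 0.44 was not called (edgeR adjusted p = 0.857).

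The last steps rose with smaller fitted changes. Pgam1, the phosphoglycerate mutase, changed by 0.39 ± 0.03 on the log2 scale, and the enolase genes Eno1 and Eno2 by 0.34 ± 0.03 and 0.31 ± 0.05. Pkm, the pyruvate kinase gene and the most abundant of the members by CPM, was at 1841, 1840 and 1848 CPM in control and at 2400.4, 2299 and 2365 CPM in SAFB KD. The groups were separate, with a log2 fold change of 0.35 ± 0.03 (edgeR adjusted p = 2.90e-14). The counts add up its splice forms, so the ratio of the M1 and M2 forms was not analysed here.

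Per kilobase of exon, a scale that depends on the annotated exon length of each gene, the pathway was far from even. Control levels were 369 CPM per kilobase for Pkm, 315 for Ldha, 264 for Gapdh, 221 for Pgk1 and 218 for Tpi1. They were 155.9 for Aldoa, 125 for Eno1 and 119.9 for Pgam1. The early steps were lower, with 61.7 for Gpi1, 45.3 for Slc2a1, 29.3 for Pfkm, 13.0 for Hk2 and 9.71 for Hk1. In SAFB KD Ldha, at 481, was above Pkm, at 471.

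**Figure D2:**
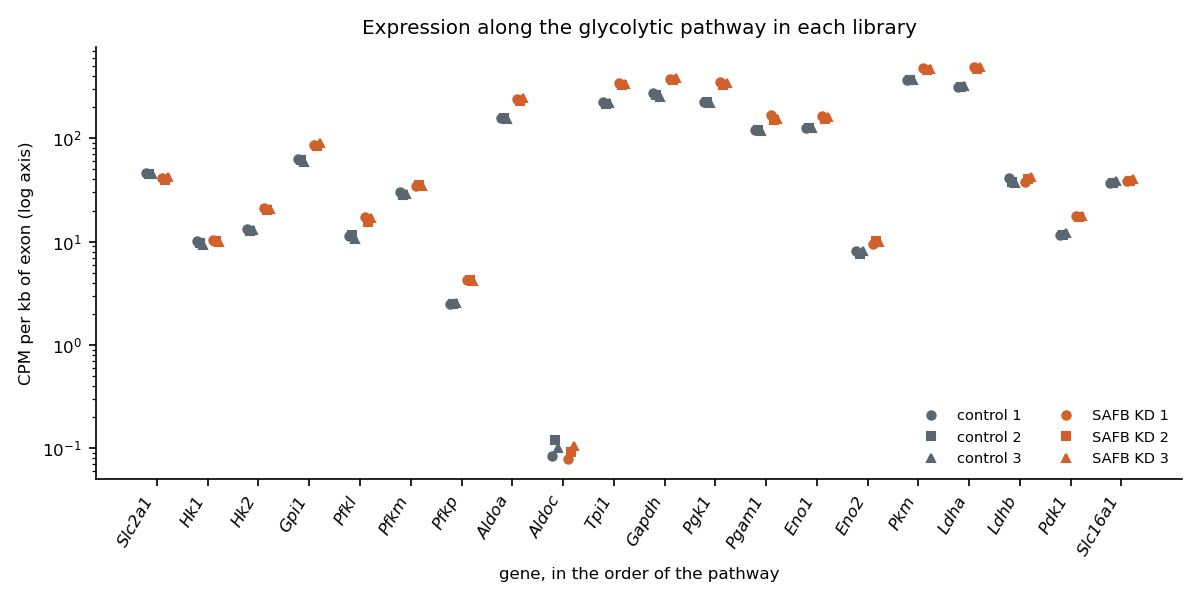
Expression along the pathway in each of the 6 libraries, in CPM per kilobase of exon on a log axis, with control libraries in grey and SAFB KD libraries in orange. Orange points lie above grey ones at most steps, for example for Hk2, Aldoa and Ldha, but overlap with them for Hk1, Ldhb and Slc16a1 and lie below them for Slc2a1.

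At the branch from pyruvate, the genes on the lactate side split. Ldha, the subunit that favours lactate, was at 1033, 1048 and 1051 CPM in control and at 1634, 1536 and 1610.3 CPM in SAFB KD, a log2 fold change of 0.61 ± 0.03 (edgeR adjusted p = 1.09e-20). Ldhb, the subunit that favours pyruvate, was at 65.4, 59.4 and 58.5 CPM and then at 58.7, 63.8 and 65.8 CPM. The Ldhb groups were interleaved, and the difference of 0.04 ± 0.04 on the log2 scale was not called (edgeR adjusted p = 0.514). Pdk1, a kinase that inhibits pyruvate dehydrogenase and so limits the oxidation of pyruvate in mitochondria, rose from 91.6 ± 1.89 to 137 ± 2.75 CPM. Its log2 fold change was 0.58 ± 0.03 (edgeR adjusted p = 1.21e-17). Slc16a1, the lactate transporter MCT1, went from 166 ± 3.28 to 173 ± 4.93 CPM with overlapping groups and was not called (edgeR adjusted p = 0.142). The HIF-induced exporter MCT4, encoded by Slc16a3, had 0 reads in control and 2 in SAFB KD 1, so that MCT1 accounted for nearly all reads of the pair.

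The bifunctional enzymes that set the level of fructose 2,6-bisphosphate, an activator of phosphofructokinase, were low and were not called. Pfkfb3 was at 8.46, 8.22 and 9.17 CPM in control and at 10.4, 9.05 and 9.09 CPM in SAFB KD, with overlap (log2 fold change 0.14 ± 0.09, edgeR adjusted p = 0.203). With the correction for exon length and GC content it was 0.25 and was called (edgeR adjusted p = 0.0158). Pfkfb4 was at 9.29, 8.81 and 7.92 CPM and then at 7.84, 7.56 and 7.63 CPM. Its groups did not overlap, with SAFB KD below control, yet its log2 fold change of -0.18 ± 0.09 missed the threshold (edgeR adjusted p = 0.0976). Without control 3, the lowest control library, it was -0.25 and was called (edgeR adjusted p = 0.0256).

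Shares within families of isozymes moved with these unequal changes. The share of each member was taken from CPM per kilobase of exon within the library, and groups were compared over the 6 libraries with a 2-sided exact permutation test, whose smallest possible p with 3 against 3 libraries is 0.1. Groups did not overlap in 8 of the 11 families, each with the exact permutation p of 0.1 and 0.138 after adjustment over the 11 families, so that no family could be called. On this scale, Hk2 made up 57.2 ± 0.723% of hexokinase in control and 66.9 ± 0.549% in SAFB KD, 9.72 percentage points more. The level of a share depends on the annotated exon lengths, here 8532 bases for Hk1 and 5969 for Hk2. By CPM alone, Hk1 was above Hk2 in control, at 82.9 ± 3.58 beside 77.4 ± 1.74 CPM. Among phosphofructokinases, Pfkm went from 68.2 ± 1.14 to 62.9 ± 1.31%, Pfkl from 25.9 ± 1.14 to 29.6 ± 1.37% and Pfkp from 5.87 ± 0.224 to 7.53 ± 0.0777%. Pfkp was divided by 13401 bases and Pfkm by 3340, so the size of the Pfkp share also depends on these lengths. Ldha went from 89.0 ± 0.682 to 92.3 ± 0.551% of lactate dehydrogenase. Pfkfb3 went from 39.1 ± 3.17 to 44.4 ± 1.49% of its pair. The enolases moved in step, with Eno1 at 94.1 ± 0.180% and 94.1 ± 0.330% (exact permutation p = 0.7, 0.856 after adjustment).

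**Figure D3:**
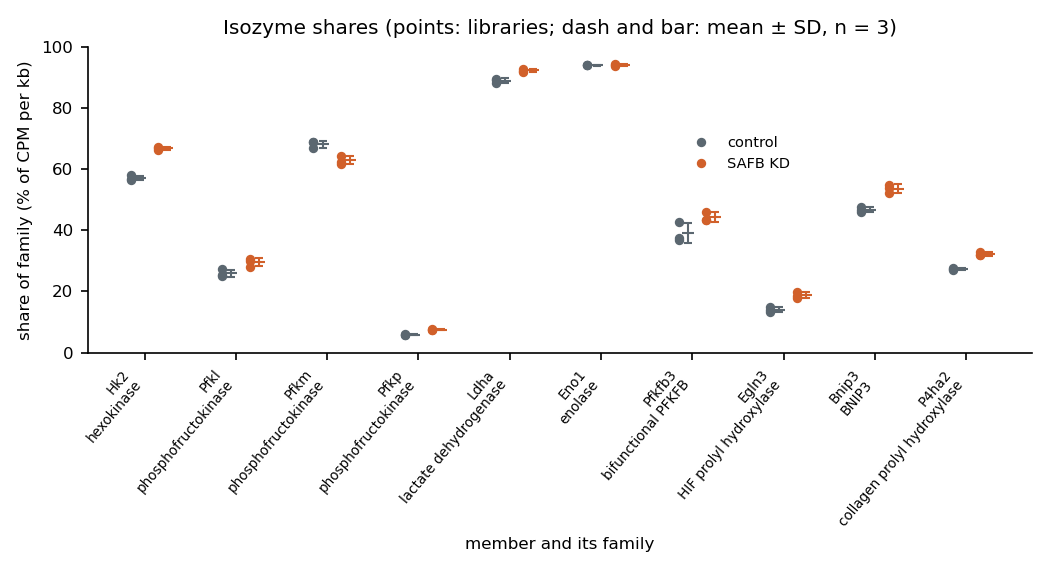
Share of 1 family member in the summed CPM per kilobase of its family, in percent, for control libraries in grey and SAFB KD libraries in orange, with the mean and SD of 3 libraries beside the points. Hk2 goes from 57.2 to 66.9% and Pfkm from 68.2 to 62.9%, whereas Eno1 is at 94.1% in both groups.

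The 12 other HIF targets all rose, with edgeR log2 fold changes from 0.13 to 1.36. The largest was that of Ankrd37, a gene known for its induction by hypoxia, although it was also the lowest of the 12 by CPM in control. It was at 4.33, 4.28 and 5.001 CPM in control and at 13.4, 10.6 and 11.1 CPM in SAFB KD, so that every SAFB KD library was above 2-fold of the highest control library. Its log2 fold change was 1.36 ± 0.10 (edgeR adjusted p = 9.76e-15), and it was called beyond 2-fold (glmTreat adjusted p = 0.00828). On the annotation it spans 45996902 to 46005707 on the minus strand of chromosome 8 and shares exonic bases with Ufsp2 and Lrp2bp on the opposite strand. Lrp2bp also rose, with a log2 fold change of 0.77 ± 0.19 from 54, 46 and 55 to 90, 95 and 109 reads. The values of such pairs rest on counting by strand.

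The regulators of mitochondria rose next. Bnip3, a receptor that marks mitochondria for autophagy, was at 64.2, 64.7 and 66.2 CPM in control and at 120.1, 108 and 116 CPM in SAFB KD (log2 fold change 0.82 ± 0.04, edgeR adjusted p = 8.05e-21). Its relative Bnip3l went from 127 ± 6.20 to 169 ± 1.19 CPM, which is 0.42 ± 0.03 on the log2 scale. Groups did not overlap for either gene, and the share of Bnip3 in the pair per kilobase went from 46.7 ± 0.840 to 53.6 ± 1.47%. The mitochondrial adenylate kinase Ak4 changed by 0.67 ± 0.04 and Higd1a, a small inner-membrane protein, by 0.59 ± 0.05 on the log2 scale.

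Both secreted factors rose. Vegfa, the vascular growth factor, was at 264, 262 and 263 CPM in control and at 374, 371 and 378 CPM in SAFB KD, a log2 fold change of 0.51 ± 0.03 (edgeR adjusted p = 8.15e-18). Adm, the gene of the vasodilator peptide adrenomedullin, was low, at 5.41 ± 0.706 and 7.66 ± 0.577 CPM (log2 fold change 0.50 ± 0.10, edgeR adjusted p = 9.64e-05). Control 1 was the highest Adm library of its group, at 6.22 CPM, but still below all of SAFB KD.

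The collagen prolyl 4-hydroxylases need oxygen and modify procollagen. P4ha2 rose from 102 ± 3.29 to 143 ± 2.83 CPM (0.49 ± 0.03 on the log2 scale) and P4ha1 less, from 178 ± 7.58 to 198 ± 3.35 CPM (0.15 ± 0.03), so that the share of P4ha2 per kilobase went from 27.4 ± 0.237 to 32.4 ± 0.606%. Among the others, Ndrg1, a stress-induced gene, changed by 0.52 ± 0.04 and Mxi1, an antagonist of MYC, by 0.35 ± 0.04 on the log2 scale. Kdm3a, a histone demethylase that uses oxygen, had the smallest change of the 12, at 0.13 ± 0.03 (edgeR adjusted p = 0.00166), with groups that still did not overlap.

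**Figure D4:**
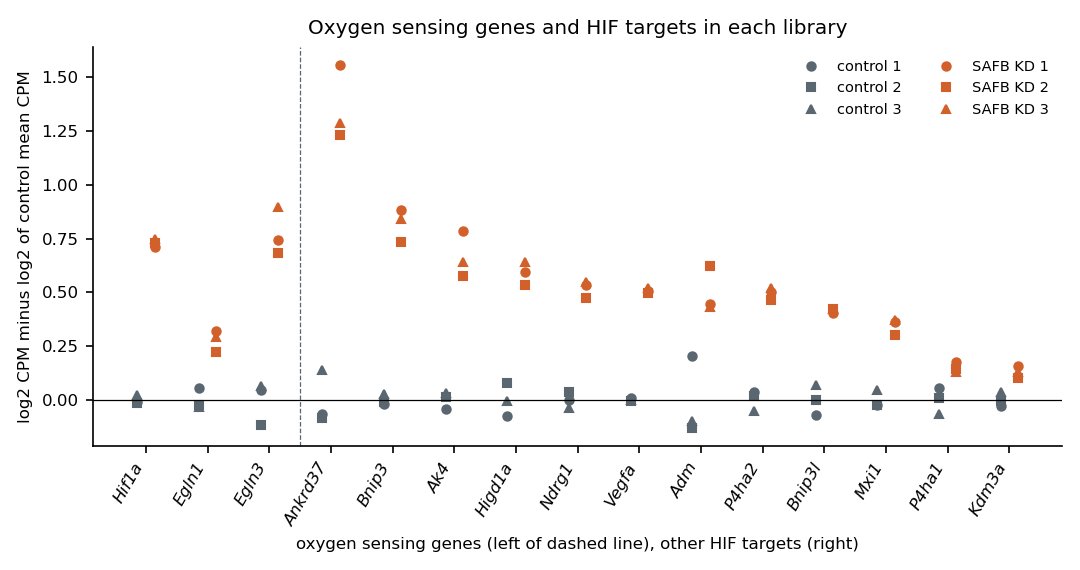
Log2 CPM of each library minus the log2 of the control mean, for 3 genes of the oxygen-sensing group and 12 other HIF targets ordered by fold change, with control libraries in grey and SAFB KD libraries in orange. All orange points lie above the grey points of the same gene, from Ankrd37 (1.36 in the fit) down to Kdm3a (0.13).

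Of 18 partners and regulators of HIF, 10 were higher and 5 lower, with a median log2 fold change of 0.11. Over all tested genes 21.4% were higher and 20.1% lower, and at a mean of at least 10 CPM 35.9% and 29.8%, so the count of lower genes was near the background. Cited2, a HIF target that competes with HIF for the coactivator p300, rose from 157 ± 12.3 to 263 ± 6.32 CPM (0.74 ± 0.04), and the chaperone Hsp90aa1, which stabilises HIF alpha, rose from 905 ± 58.4 to 1416 ± 56.2 CPM (0.65 ± 0.03). The more abundant relative of this chaperone, Hsp90ab1, was called lower, from 2885 ± 72.0 to 2707 ± 79.7 CPM (-0.09 ± 0.03). Rack1, which promotes the turnover of HIF alpha, changed by 0.26 ± 0.03. Ep300, the gene of p300 itself, fell from 125 ± 4.25 to 100.4 ± 2.14 CPM, by 0.32 on the log2 scale (SE 0.03).

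A longer list held 28 further HIF targets. Of the 26 tested, 16 were higher and 3 were lower, with a median log2 fold change of 0.37. The shares were 21.4% and 20.1% over all tested genes, and 35.9% and 29.8% at a mean of at least 10 CPM. The oxidase Ero1l, which forms disulphide bonds in the endoplasmic reticulum, rose from 108 ± 3.44 to 276 ± 5.20 CPM (1.35 ± 0.03), and Tfrc, the transferrin receptor, from 361 ± 14.9 to 878 ± 50.9 CPM (1.28 ± 0.03). Ddit4, an inhibitor of mTOR signalling, changed by 1.02 ± 0.03. Cited2 is on this list as well. Lox, the collagen crosslinking enzyme and also one of the fibroblast markers above, fell from 4111 ± 25.7 to 2744 ± 27.4 CPM. The carbonic anhydrase genes Car9 and Car12, often used as markers of hypoxia, had 5 reads each.

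The routes that branch from glycolysis are read against the same background, 35.9% higher and 29.8% lower among genes that averaged 10 CPM or more. In the pentose phosphate pathway 6 of 8 genes were higher and 2 lower. The smallest adjusted p-values were those of Tkt, the transketolase (0.38 ± 0.03 on the log2 scale), Rpe (0.36 ± 0.04), Taldo1 (0.28 ± 0.03) and Pgls (0.44 ± 0.06). The 2 lower genes were Pgd (-0.24 ± 0.03) and Rpia (-0.39 ± 0.06). G6pdx was called higher at only 0.08 ± 0.03, with overlapping groups. Of 13 genes for the entry of pyruvate into mitochondria and its use there 8 were higher and 4 lower, the latter near the background share. These genes include subunits, inhibiting kinases and activating phosphatases of pyruvate dehydrogenase, so the counts give no direction of flow. The lower genes were the kinases Pdk2 and Pdk4 and the phosphatases Pdp1 (-0.31 ± 0.05 on the log2 scale) and Pdp2 (-0.18 ± 0.06). The pyruvate dehydrogenase subunits Dld and Pdhb changed by 0.40 ± 0.03 and 0.39 ± 0.03 and the carboxylase Pcx by 0.47 ± 0.04. Pdk4, a kinase of the same enzyme as Pdk1, fell from 14.4 ± 0.638 to 8.42 ± 0.490 CPM, by 0.77 on the log2 scale (SE 0.08), in the opposite direction to Pdk1. Of 16 genes of the tricarboxylic acid cycle 9 were higher and 1 lower, with Mdh2, Fh1, Sucla2 and Idh3a at 0.33, 0.35, 0.39 and 0.27, and a list median of 0.11.

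On a list of gluconeogenesis and fructose bisphosphatase genes, 2 of the 4 tested were higher and 1 was lower, too few to read against the background. The higher genes were Pck2 and Pcx, the latter already counted above with the pyruvate genes. Pck2, the mitochondrial phosphoenolpyruvate carboxykinase, rose from 62.7 ± 5.002 to 107.6 ± 2.18 CPM (0.78 ± 0.04), while G6pc3, a glucose-6-phosphatase, fell by 0.38 on the log2 scale (SE 0.05). Tigar, a bisphosphatase of the regulator fructose 2,6-bisphosphate and not a step of that route, was at 5.76 ± 0.414 and 6.72 ± 0.673 CPM and was not called. Fbp1, Fbp2 and Pck1 had 0 reads in all 6 libraries. Of 10 other regulators of glycolytic genes, 5 were higher and 3 lower, beside 35.9% and 29.8% of genes that averaged 10 CPM or more, so that the lower calls were at the background share. Myc, a transcription factor that shares many glycolytic targets with HIF, rose from 100.4 ± 6.24 to 188 ± 10.4 CPM (0.90 ± 0.04), while Mlx, the partner of the glucose sensor ChREBP, and Txnip, an inhibitor of glucose uptake, changed by 0.38 ± 0.04 and 0.37 ± 0.05. Rptor, a subunit of mTORC1, fell by 0.26 on the log2 scale (SE 0.04).

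Several of these genes have many near-identical pseudogenes, with which reads can be shared. By alignment, 291 annotated pseudogenes had a member as their closest coding gene, 205 of them Gapdh and 29 Ldha, and 44 of the 291 were at least 98% identical over the aligned bases. In all, 92 were tested, of which 10 were higher, 2 lower and 80 not called, beside 21.4% higher and 20.1% lower of all tested genes. The 291 copies had 56563 reads together, 48136 of them in Gm13394 alone. Low counts limit what can be called, so the few calls do not show that the copies were unchanged. The copies named below are those with the smallest adjusted p, so they are mostly called ones. Gm13394, 99.9% identical to Gapdh over 1000 bases, was by far the most counted Gapdh copy. Its level went from 153 ± 4.41 to 229 ± 11.7 CPM, a log2 fold change of 0.58 ± 0.03 (edgeR adjusted p = 1.84e-17) beside 0.50 for Gapdh. Its counts were 14.1 ± 1.06% of those of Gapdh in control and 14.8 ± 0.443% in SAFB KD, and whether they came from Gapdh RNA was not tested.

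A more divergent copy behaved differently. Gm7497, a processed pseudogene 90.5% identical to Gapdh over 996 bases, had 2, 7 and 4 reads in control and 120, 146 and 177 reads in SAFB KD. The groups were wholly separate, with a log2 fold change of 4.90 ± 0.29 (edgeR adjusted p = 1.35e-17), beyond 2-fold by glmTreat (adjusted p = 8.61e-14). It lies on chromosome 18 from 9748732 to 9749724 on the plus strand, while Gapdh is on chromosome 6. Other copies were low: Gm4518, a Gapdh copy, went from 1.72 ± 0.237 to 2.60 ± 0.252 CPM, Gm6560, a Pkm copy, from 5.29 ± 0.627 to 6.83 ± 0.619 CPM and Gm5452, an Ldha copy, from 0.385 ± 0.0276 to 0.824 ± 0.226 CPM, all called higher. Gm28188, with 229 bases similar to Ankrd37, had 25 reads in control and 0 in SAFB KD, which is at least 9.26-fold lower against a floor of 3 reads over the group.

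**Figure D5:**
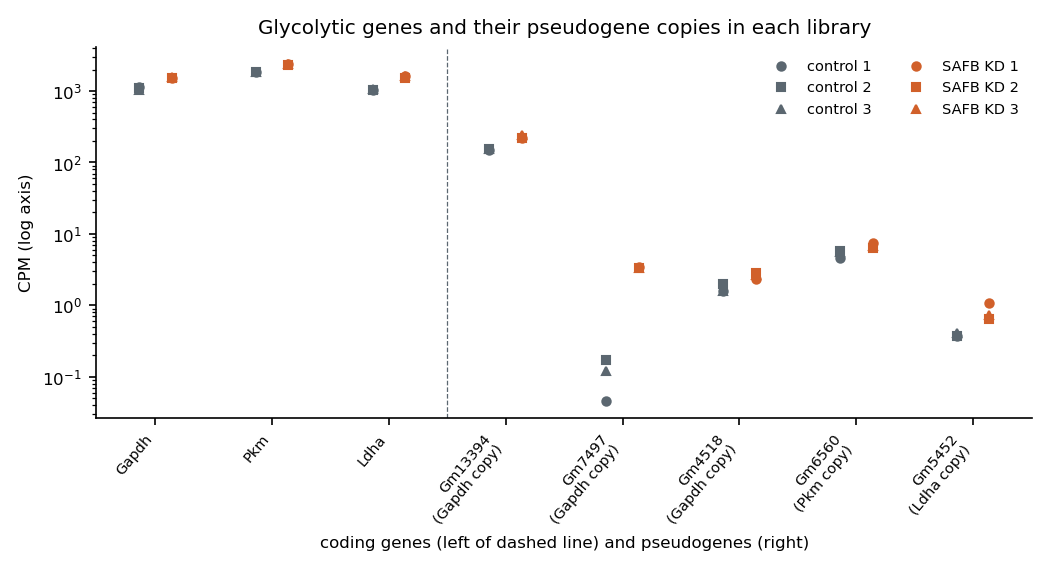
CPM of Gapdh, Pkm and Ldha and of 5 pseudogenes copied from them in each library, on a log axis, with control libraries in grey and SAFB KD libraries in orange. Gm13394 follows Gapdh at about 14% of its counts, and Gm7497 goes from below 0.2 CPM in control to 3.39 CPM in SAFB KD.

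Some members overlap other annotated genes, and reads in bases shared on the same strand are counted for neither. Gm49759, an unconfirmed transcript within Pkm on the same strand, had 11354 reads in all and a log2 fold change of 0.04 ± 0.05, which was not called. Within an intron of Slc16a1, the transcript Gm43581 went from 16, 20 and 20 to 6, 9 and 13 reads and was called lower (edgeR adjusted p = 0.0308). On opposite strands, Pfkp overlaps Pitrm1 (0.28 ± 0.03, called higher), Pfkm overlaps Senp1 (-0.20 ± 0.04, called lower) and Aldoa overlaps Fam57b (0.70 ± 0.26, called higher), each given as a log2 fold change.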

How the data were processed

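The deposited values were raw read counts per gene, 1 library per file, which the authors made by aligning trimmed stranded reads to GRCm38 with STAR 2.7.9a. The submitters' processing notes also name deepTools 3.5.1. The methods describe gene counts for the reverse strand, and it is inferred that the files hold these. Such counts keep reads that align once and overlap the exons of 1 gene, so recent copies lose reads. Groups were taken from the sample titles. The members and gene lists were chosen with earlier results of these data known.

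Identifiers were matched to GENCODE for GRCm38 (54495 of 54532). Genes with at least 10 reads over the 6 libraries were scaled by TMM and tested with edgeR 4.0.16 (glmQLFit, glmQLFTest, and glmTreat at a log2 threshold of 1) in R 4.3.3, and p-values were adjusted over 19452 genes. The biological coefficient of variation was 3.49%. The SE of a log2 fold change was derived so that its ratio to the change matches the test. Levels per kilobase used the summed length of annotated exons. Pseudogenes were aligned with BLAST+ 2.17.0 (E value at most 1e-20, at least 100 aligned bases). Named genes were all members, up to 4 of each list with the smallest adjusted p, and the 6 pseudogenes with the smallest adjusted p. A gene of the further HIF targets that this rule names is not reported here. Epcam, Krt18, Krt19, Cldn4, Ptprc, Kdr, Egln2, Hsp90ab1, Car9, Car12, Fbp1, Fbp2, Pck1 and the genes that overlap members were named after their values were seen. The same holds for Hif1an, Pgd, Rpia, G6pdx, Pdk2, Pdp1 and Pdp2. The code of the tests was checked on simulated counts, in which far fewer genes changed than were called here. That check therefore does not cover scaling or false calls under changes this widespread. Alternatives used DESeq2 1.42.0 and limma 3.58.1.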

Additional observations from a re-analysis of the deposited data

How the results depend on the processing

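Each of the 37 tested members was recomputed under 15 alternatives, which gave 555 values. Of these 544 kept their direction and their side of the threshold, 7 became called and 4 changed sign, all of them of members that were not called, and the 31 called members kept their calls throughout. The values that changed sign were those of Ldhb with the length and GC correction (-0.062, with the replicate block also -0.062) and without control 3 (-0.0021), and of Aldoc without control 2 (0.0038). With single libraries left out, Ldhb ranged from -0.0021 to 0.087 and Aldoc from -0.26 to 0.0038. Members called lower numbered 2 instead of 1 with library totals, where Pfkfb4 was added, and 1 to 2 when single libraries were left out. The median log2 fold change of the glycolytic members was 0.33 with library totals, 0.44 with the length and GC correction and 0.44 when the replicate block was added to it. That of the other HIF targets was 0.46, 0.57 and 0.57 under the same settings and between 0.47 and 0.51 when single libraries were left out. Library totals lowered the median of all genes to -0.03, and the share of calls that were higher was 51.5% in the main setting, 43.6% with library totals and 58.2% with the length and GC correction. Without scaling for length, the share of Ldha moved by 1.74 percentage points, that of Egln1 by -3.80 and that of P4ha1 by -5.69. Deviations of libraries with the same replicate number correlated at -0.0051, -0.0091 and -0.0166, so no effect shared by the number was seen. Whether samples of the same number were prepared together cannot be told from these values. With the replicate number as a block, 30 members were higher, 1 was lower and the glycolytic median was 0.37, and no call of a member changed.

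The values rest on 3 libraries a group from 1 cell line, at 33323307 to 53441129 counts each, and on RNA alone. Aldoc, at 9 to 18 reads a library, had an SE of 0.44 on the log2 scale, so that only a large change could have been called. Epas1 and Slc16a3, with 1 and 2 reads, were not tested.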
